A study of Mus musculus with 23 samples.

Results

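The genes described here are the nuclear-encoded subunits of mitochondrial complex I, chosen by symbol from a list of 35 Nduf genes with the assembly factors and pseudogenes left out. All 35 were found among the 55401 genes of the count table, and all 35 were among the 18083 genes that passed the filter on low counts. The study profiled RNA from mouse bone marrow-derived macrophages, primary phagocytes grown from bone marrow progenitors, of Selenow knock-out and wild-type mice. Selenow encodes selenoprotein W, a small selenium-containing protein. The cells carried the labels KO or WT and were untreated or exposed to lipopolysaccharide (LPS), the bacterial outer-membrane component recognised by Toll-like receptor 4, for 4, 8 or 24 h at a dose of 100 ng/ml. The KO groups held 3 libraries untreated, 3 at 4 h, 3 at 8 h and 2 at 24 h, and each of the 4 WT groups held 3. Untreated cells were sampled at 0 h only, so hours of LPS and hours in culture cannot be told apart. The labels do not say whether libraries of a group came from separate animals or cultures, and the p-values therefore measure the spread between these libraries, which may be technical.

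Complex I, the NADH:ubiquinone oxidoreductase, takes electrons from NADH, passes them through a flavin and a chain of iron-sulfur clusters to ubiquinone and pumps protons across the inner mitochondrial membrane. Its peripheral arm in the matrix holds the nuclear-encoded core subunits with the redox centres, while the pumping core of the membrane arm is encoded by mitochondrial DNA and is surrounded by nuclear-encoded accessory subunits. In macrophages LPS is known for a shift towards glycolysis, and complex I is known as a source of reactive oxygen species when electrons run backwards through it.

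Total counts were 39001456 to 41819953 per library. The targeted gene did not separate all libraries by their labels. Selenow was at 106 CPM (counts per 1000000, scaled by the trimmed mean of M values, TMM) in KO-labelled library 13 at 0 h, 191 CPM in library 16 at 4 h, 260 CPM in library 19 at 8 h and 181 CPM in library 22 at 24 h. The other 7 KO-labelled libraries had 39.4 and 40.8 CPM at 0 h, 82.6 and 81.1 CPM at 4 h, 135 and 125 CPM at 8 h and 113 CPM at 24 h. WT libraries had 103 to 133, 181 to 202, 303 to 327 and 161 to 201 CPM at these times. Libraries 13, 16, 19 and 22 therefore lay near the WT level of the targeted gene, and the calls in KO-labelled cells are given below with and without them. A second split crossed the genotypes: at each time 1 WT library (3, 6, 9, 12) and 1 KO-labelled library (14, 17, 20, 23) deviated from their groups together, with correlations of 0.765, 0.767, 0.775 and 0.708 over 10380 genes outside the list. Of 6 macrophage markers all were detected in every library, with summed levels of 11626 to 25617 CPM in KO-labelled and 9790 to 22661 CPM in WT libraries. Summed B cell markers, led by Ighm, were at 0.633 to 1.04 CPM in KO-labelled cells at 24 h, against 146 to 180 CPM in untreated KO-labelled cells, and at 0.491 to 1.29 CPM in WT cells at 24 h, against 108 to 146 CPM in untreated WT cells. Summed neutrophil markers were at 8.95 to 10.9 CPM in KO-labelled cells at 24 h, against 131 to 136 CPM untreated, and at 2.95 to 4.37 CPM in WT cells at 24 h, against 75.7 to 89.9 CPM untreated. Stromal markers summed to between 1.72 and 98.1 CPM in KO-labelled and between 1.60 and 40.4 CPM in WT libraries, and T and NK cell markers did not exceed 0.177 CPM. Pdgfrb led the stromal sums at 4 h, at 33.4 to 71.5 CPM in KO-labelled and 27.1 to 39.1 CPM in WT cells. Col1a1 was at 10.3, 15.6, 40.1 and 16.6 CPM in libraries 14, 17, 20 and 23, the KO-labelled ones of the second split. In every other library of either genotype it was at 3.57 CPM or less. The part of these other cells in the results below was not tested, and in bulk RNA fewer cells of a type and less RNA per cell cannot be told apart.

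Levels of different members were compared as FPKM, the TMM-scaled CPM per kilobase of exonic length. In untreated WT cells levels of the 35 members differed widely. Ndufb11, an X-linked single-pass subunit of the distal membrane arm, was highest at 68.7 ± 2.26 FPKM (SD, n = 3), followed by Ndufa2, a thioredoxin-fold subunit of the peripheral arm, at 61.2 ± 6.10 FPKM and Ndufc2, a membrane-arm subunit, at 48.6 ± 1.85 FPKM. The ranges of Ndufb11 (66.1 to 70.4 FPKM) and Ndufa2 (57.2 to 68.2 FPKM) overlapped, so these neighbours in the order did not differ beyond their spread. Ndufb2 at 1.80 ± 0.0101 FPKM, Ndufab1 at 3.31 ± 0.609 FPKM and Ndufs4 at 5.40 ± 0.350 FPKM were lowest. Ndufc2 had 37.8, 35.4 and 32.3 CPM in untreated KO-labelled cells, 37.3, 47.1 and 36.2 at 4 h, 35.98, 40.7 and 35.4 at 8 h, and 36.96 and 39.5 at 24 h. In WT cells it had 35.99, 35.8 and 38.3 CPM untreated, 39.7, 38.7 and 45.2 at 4 h, 34.8, 36.5 and 39.5 at 8 h, and 31.97, 34.2 and 32.2 at 24 h, and it was called in no LPS comparison. The exonic lengths deposited for Ndufb2 (5628 bases) and Ndufab1 (6883 bases) cover all annotated isoforms and were several times those of Ndufb11 (908 bases) and Ndufa2 (572 bases), which lowers FPKM for genes with long alternative ends. Counts behind these values ran from 183 (Ndufb2) to 3446 (Ndufb8) per member and library.

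**Figure D1:**
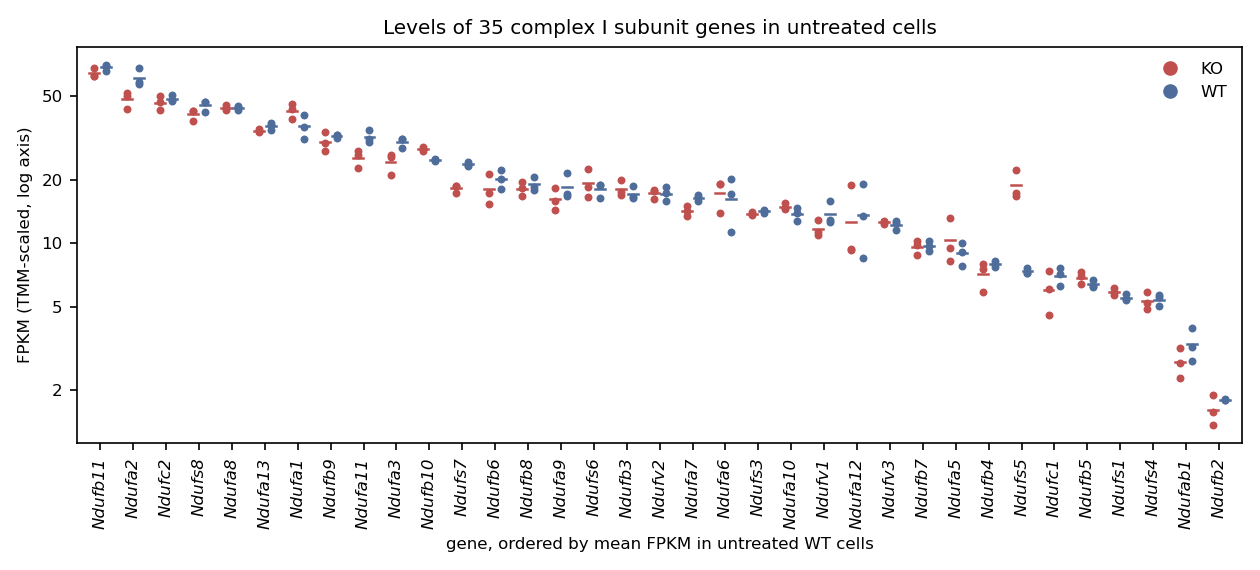
FPKM of the 35 members in untreated cells on a log axis, with 1 point per library and a bar for the mean of KO (red) and WT (blue) groups. Genes are ordered by the WT mean, from Ndufb11 at 68.7 FPKM to Ndufb2 at 1.80 FPKM.

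Promoter sequences of 4 members are shown because the results turn on these genes: Ndufs4 was the member called higher and Ndufb11 the member called lower in all 6 LPS comparisons, Ndufs8 was called lower at 8 and 24 h in both genotypes, and Ndufs5 differed between the genotypes at every time. Each runs 5′ to 3′ on the gene's strand from 250 bases before the annotated start to 50 bases from the start on, from RefSeq's table of build GRCm38.p6, in which 32 of the 35 members were matched. The windows are chr13:114388045-114388344 on the minus strand for Ndufs4, chrX:20617570-20617869 on the minus strand for Ndufb11, chr19:3912725-3913024 on the minus strand for Ndufs8 and chr4:123718137-123718436 on the minus strand for Ndufs5. Capitals mark matches on either strand to any of 6 motifs searched: NRF1 and NF-kB (each in a core form of 10 letters), ETS (CCGGAAG), YY1 (AAGATGG), the ERR core (AAGGTCA) and the CCAAT box (CCAAT).
Ndufs4: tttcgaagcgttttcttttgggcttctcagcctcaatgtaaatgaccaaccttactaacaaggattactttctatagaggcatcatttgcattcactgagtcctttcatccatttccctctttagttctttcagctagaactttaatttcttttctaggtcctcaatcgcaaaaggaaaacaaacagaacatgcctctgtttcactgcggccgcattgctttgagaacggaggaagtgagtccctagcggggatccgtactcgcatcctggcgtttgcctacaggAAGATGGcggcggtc
Ndufb11: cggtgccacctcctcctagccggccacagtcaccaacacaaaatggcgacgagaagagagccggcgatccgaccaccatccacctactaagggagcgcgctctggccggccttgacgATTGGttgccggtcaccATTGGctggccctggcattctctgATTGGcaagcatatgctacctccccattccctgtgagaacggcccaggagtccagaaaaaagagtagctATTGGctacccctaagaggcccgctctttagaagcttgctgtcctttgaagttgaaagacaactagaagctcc
Ndufs8: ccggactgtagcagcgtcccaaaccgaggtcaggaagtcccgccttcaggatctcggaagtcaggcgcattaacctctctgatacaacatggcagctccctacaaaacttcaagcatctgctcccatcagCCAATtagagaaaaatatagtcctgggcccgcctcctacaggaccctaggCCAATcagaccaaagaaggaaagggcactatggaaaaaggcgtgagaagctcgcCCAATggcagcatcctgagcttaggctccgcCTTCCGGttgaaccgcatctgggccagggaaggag
Ndufs5: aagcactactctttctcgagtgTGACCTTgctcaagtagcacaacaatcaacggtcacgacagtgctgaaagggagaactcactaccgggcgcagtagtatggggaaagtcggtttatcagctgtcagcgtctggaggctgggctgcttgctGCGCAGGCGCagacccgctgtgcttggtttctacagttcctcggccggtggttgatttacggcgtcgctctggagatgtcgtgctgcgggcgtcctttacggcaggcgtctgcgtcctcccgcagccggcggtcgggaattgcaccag

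Counting from position 0 at the annotated start, the Ndufs4 window held a YY1 match at positions 35 to 41. Ndufb11 held 4 CCAAT matches, all on the other strand, and Ndufs8 held 3 CCAAT matches and an ETS match. Ndufs5 held an NRF1 match at positions -98 to -89 and an ERR core on the other strand. Over the 32 members with a window, the NRF1 letters were found in 7 (21.9%), against 4.78% of 27025 promoters of the same length. YY1 letters were also found in 7 (21.9%), against 6.48% of all promoters. In members all YY1 matches lay downstream of the annotated start, between positions 22 and 44 on the gene's strand. ETS letters stood in 4 members (12.5%, against 9.12%), the ERR core in 3 (9.38%, against 4.66%) and CCAAT in 10 (31.25%, against 37.92%). The NF-kB letters were found in 0 members and in 1.62% of all promoters. A match describes letters in a window and is no measure of binding.

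After LPS members were called in both directions, and the called changes were within 1 on the log2 scale except for the falls of Ndufb11 and Ndufs8 at 24 h in WT cells. The background was high: of all genes tested, edgeR's quasi-likelihood test called 62.1% at 4 h, 60.2% at 8 h and 43.4% at 24 h in KO-labelled cells, and 62.9%, 65.4% and 55.1% at these times in WT cells (adjusted p under 0.05). Called higher were 28%, 28.3% and 22.6% of all genes in KO-labelled and 28.2%, 30.3% and 27.8% in WT cells, and called lower were 34.1%, 31.9% and 20.8% in KO-labelled and 34.8%, 35.1% and 27.3% in WT cells. In this fit the share of members called lay below the share of all genes in each of these 6 comparisons, a difference that was not tested. With a term for the second split, 18 of 35 members were higher and 2 lower at 24 h in KO-labelled cells. That fit called 9872 of 18083 genes, so there the members' share was not below that of all genes. In KO-labelled cells 5 members were higher and 4 lower at 4 h, 6 higher and 9 lower at 8 h, and 8 higher and 2 lower at 24 h. In WT cells 3 were higher and 5 lower at 4 h, 3 higher and 13 lower at 8 h, and 3 higher and 8 lower at 24 h. The median log2 fold change over the 35 members was 0.12, -0.03 and 0.16 at 4, 8 and 24 h in KO-labelled cells, where that of all genes was -0.10, -0.09 and 0.00. In WT cells the members' median was -0.02, -0.17 and -0.13, and that of all genes -0.12, -0.10 and 0.00. Without libraries 13, 16, 19 and 22, the KO-labelled counts came to 4 called members at 4 h, 8 at 8 h and 2 at 24 h, in groups of 2, 2 and 1 libraries against 2 untreated. The calls that held were those of Ndufa1, Ndufs3, Ndufs4 and Ndufv3 at 4 h, of Ndufb2, Ndufb5, Ndufb10, Ndufb11, Ndufs3, Ndufs4, Ndufs8 and Ndufv3 at 8 h, and of Ndufb11 and Ndufs3 at 24 h. The other members called against untreated cells in KO-labelled cells no longer passed without these 4 libraries. The 24 h count in KO-labelled cells, 10, also came to 5 without library 22, 4 without library 23 and 6 without untreated library 15.

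**Figure D2:**
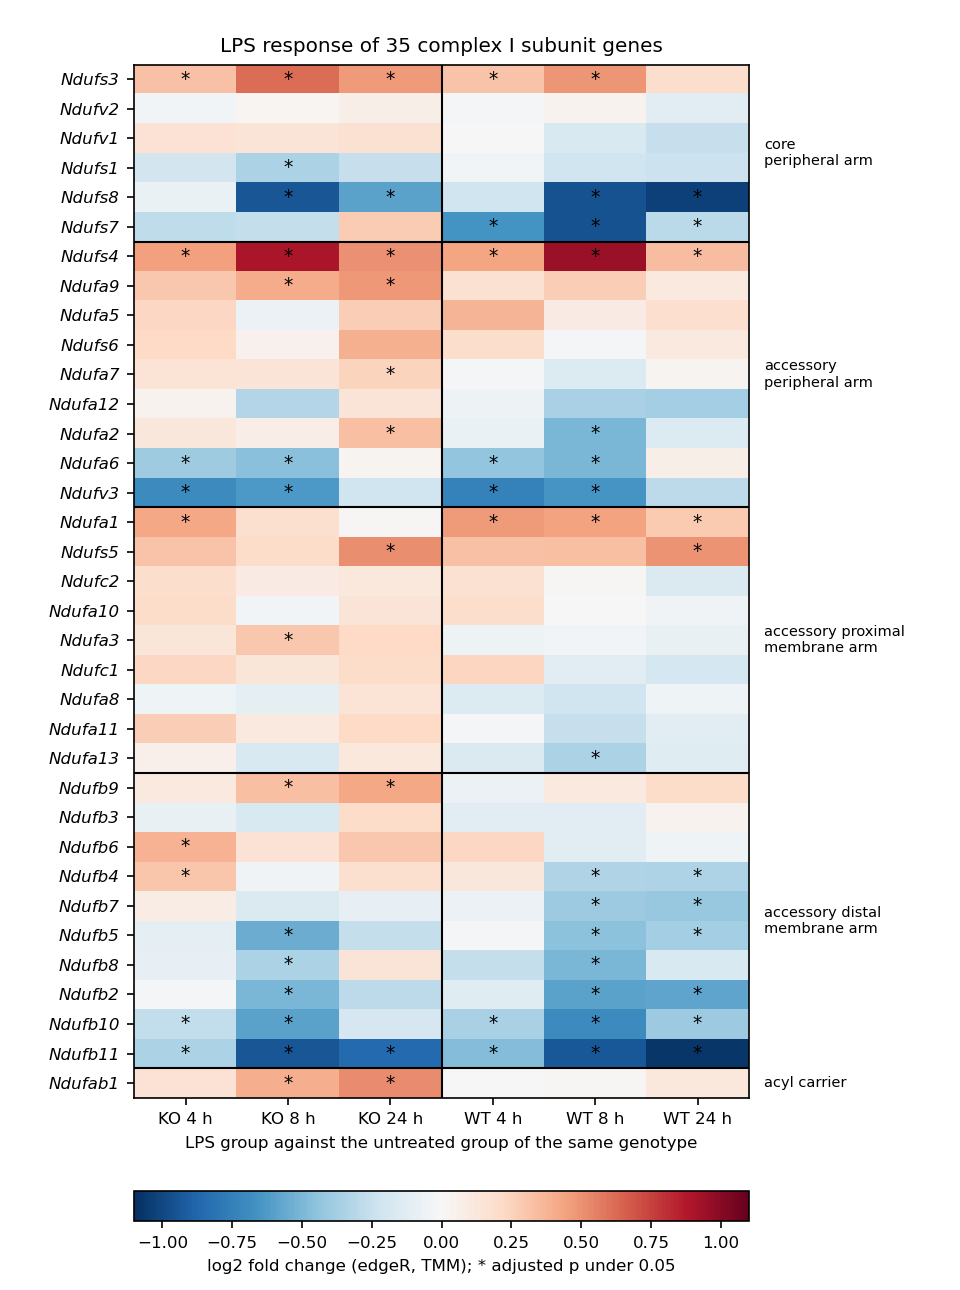
Log2 fold change of each member in each LPS group against the untreated group of its genotype, KO columns left of WT columns, with genes grouped by position in the complex and ordered within groups by the WT value at 8 h. Red is higher, blue is lower, and stars mark adjusted p under 0.05. Ndufs4 and Ndufb11 carry a star in all 6 columns, while 11 members carry none.

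Fold changes of the 35 members in KO-labelled and WT cells, whose untreated libraries are separate, had a Pearson correlation across genes of 0.915 at 4 h, 0.875 at 8 h and 0.849 at 24 h. These genes are not independent replicates, and the values describe the list only. Called in both genotypes in the same direction were 3 higher and 4 lower members at 4 h, 2 higher and 8 lower at 8 h, and 2 higher and 2 lower at 24 h. Over the 6 comparisons 11 members were never called: Ndufv1, which binds NADH and the flavin, Ndufv2, Ndufa5, Ndufa8, Ndufa10, Ndufa11, Ndufa12, Ndufb3, Ndufc1, Ndufc2 and Ndufs6. The share of all genes called in both genotypes, or in none of the 6 comparisons, was not counted. These counts therefore do not set the members apart from other genes. Ndufv2, an iron-sulfur subunit beside Ndufv1, was the steadiest member, with a ratio of 1.14 between its highest and lowest group means.

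Directions after LPS depended on how libraries were scaled. TMM factors were 0.786 to 0.902 in KO-labelled libraries at 4 and 8 h, against 1.24 to 1.36 untreated, and 0.824 to 0.914 in WT libraries at 4 and 8 h, against 1.30 to 1.34 untreated. The 35 members together took 0.134 ± 0.0148, 0.0881 ± 0.0185, 0.0870 ± 0.00332 and 0.116 ± 0.00477% of all counts at 0, 4, 8 and 24 h in KO-labelled libraries (SD, n = 3, 3, 3 and 2). In WT libraries they took 0.142 ± 0.00752, 0.0885 ± 0.0137, 0.0795 ± 0.00459 and 0.0993 ± 0.0109% (SD, n = 3 each). After TMM scaling the members' sums were 1039 ± 64.7, 1057 ± 138, 971 ± 27.3 and 1098 ± 0.542 CPM in KO-labelled cells and 1082 ± 44.9, 1027 ± 98.6, 919 ± 39.6 and 954 ± 62.2 CPM in WT cells. The share of counts thus lay lower at every LPS time than in untreated cells in both genotypes without overlap, while the scaled sums at 8 and 24 h lay below the untreated ones without overlap in WT cells and not in KO-labelled cells. Scaled by library totals alone, a choice made after seeing the data, the median of all genes moved to -0.74, -0.62 and -0.29 in KO-labelled and -0.73, -0.70 and -0.34 in WT cells, and called members were 0 higher and 25 lower, 0 and 25, and 0 and 8 in KO-labelled cells and 0 and 27, 0 and 29, and 0 and 22 in WT cells. The median of all genes lay below 0 in each of these comparisons, so these counts do not set the members apart from other genes. The rises below are therefore rises relative to the bulk of genes, and the value without TMM is printed where a value called with or without it changes direction. A further 15 values, called in neither, also changed sign.

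**Figure D3:**
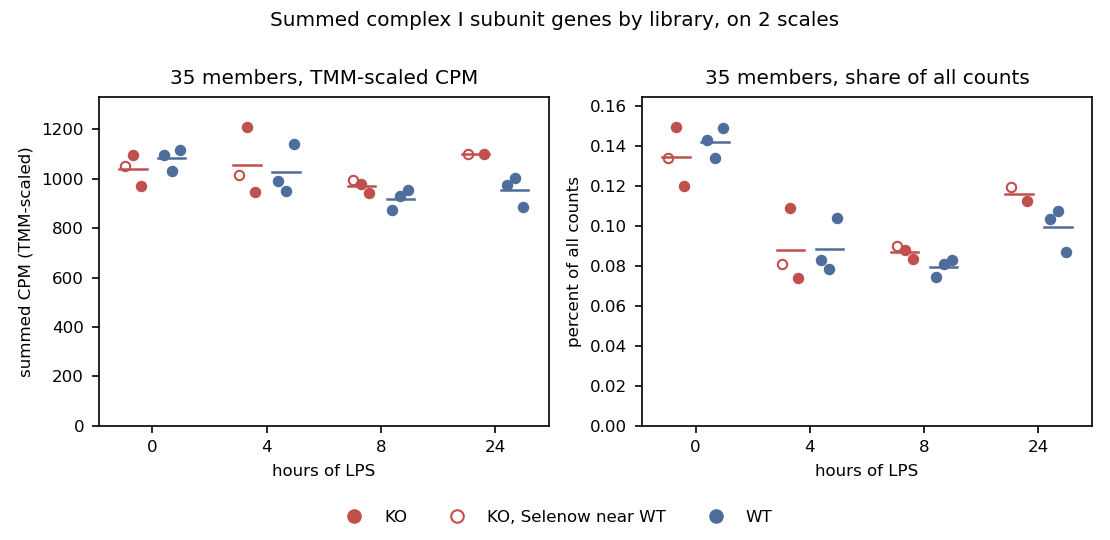
Summed level of the 35 members in each library by hours of LPS, as TMM-scaled CPM (left) and as percent of all counts (right), with bars for group means, KO in red left of WT in blue and open circles for KO-labelled libraries with Selenow near the WT level. The scaled sum stays between 875 and 1210 CPM, while the share of counts is highest in the untreated libraries of each genotype.

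Among the core subunits of the peripheral arm, 4 of 6 were called in at least 1 LPS comparison. Ndufs3, a core subunit of the ubiquinone-reducing module without an iron-sulfur cluster, had 30.8, 29.8 and 29.8 CPM in untreated KO-labelled cells, 38.4, 39.7 and 34.95 at 4 h, 47.1, 47.1 and 44.7 at 8 h, and 38.3 and 45.1 at 24 h. In WT cells it had 31.05, 31.4 and 30.4 CPM untreated, 40.4, 36.6 and 38.4 at 4 h, 40.1, 46.6 and 43.1 at 8 h, and 34.5, 37.2 and 34.2 at 24 h. Every LPS library lay above every untreated library of its genotype. Its log2 fold changes were 0.32 ± 0.08 (SE), 0.62 ± 0.08 and 0.47 ± 0.09 at 4, 8 and 24 h in KO-labelled cells (adjusted p = 0.00238, 3.69e-06 and 0.00044). In WT cells they were 0.31 ± 0.08 and 0.48 ± 0.08 at 4 and 8 h (adjusted p = 0.0028 and 5.04e-05), and 0.19 ± 0.08 at 24 h did not pass (adjusted p = 0.0572). Without TMM the 4 h values were -0.32 in KO-labelled and -0.30 in WT cells and the WT value at 8 h was -0.12, so these rises were relative ones.

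Ndufs8, which carries iron-sulfur clusters that lead electrons towards ubiquinone, had 54.9, 54.6 and 49.2 CPM in untreated KO-labelled cells, 50.2, 59.04 and 41.5 at 4 h, 27.1, 31.6 and 24.1 at 8 h, and 35.7 and 34.9 at 24 h. WT cells had 60.5, 54.1 and 60.5 CPM untreated, 48.98, 43.6 and 58.1 at 4 h, 29.1, 28.4 and 32.8 at 8 h, and 32.5, 33.8 and 19.4 at 24 h. The 4 h libraries overlapped the untreated ones in both genotypes, and the 8 and 24 h libraries all lay below them. It fell at 8 h by 0.94 on the log2 scale in KO-labelled cells (SE 0.17, adjusted p = 0.000119) and by 0.96 in WT cells (SE 0.17, adjusted p = 8.48e-05). At 24 h the fall was -0.58 ± 0.19 in KO-labelled cells (adjusted p = 0.0199) and -1.03 ± 0.17 in WT cells (adjusted p = 5.6e-05), of which WT library 12 was the lowest.

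Ndufs7, which carries the cluster that hands electrons to ubiquinone, was called lower in WT cells only, and the difference between the genotypes did not pass the test. KO-labelled cells had 32.1, 32.1 and 29.7 CPM untreated, 24.6, 29.3 and 23.4 at 4 h, 27.9, 24.7 and 25.8 at 8 h, and 40.1 and 36.02 at 24 h. WT cells had 41.6, 40.1 and 40.6 CPM untreated, 26.8, 22.3 and 28.6 at 4 h, 19.6, 20.8 and 22.5 at 8 h, and 37.1, 35.9 and 26.3 at 24 h. Untreated KO-labelled libraries lay below untreated WT libraries without overlap, and at 8 h above them without overlap. It fell in WT cells, by 0.66 at 4 h, 0.96 at 8 h and 0.30 at 24 h on the log2 scale (SE 0.12 each, adjusted p = 0.00014, 2.19e-06 and 0.0461). In KO-labelled cells the values were -0.28 ± 0.12, -0.26 ± 0.12 and 0.28 ± 0.14, and none passed (adjusted p = 0.0556, 0.0766 and 0.105). The difference between the genotypes' responses was 0.70 ± 0.18 at 8 h and 0.58 ± 0.18 at 24 h and did not pass over all genes (adjusted p = 0.156 and 0.328 in edgeR). At 8 h it passed in 3 of the 36 alternatives, DESeq2 (adjusted p = 0.016), a term for the library set (0.00233) and the libraries outside the second set (0.00373), and the adjusted p ranged from 0.00233 to 1. The remaining core subunit called, Ndufs1, which holds several clusters of the NADH-oxidising module, fell by 0.34 on the log2 scale at 8 h in KO-labelled cells.

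**Figure D4:**
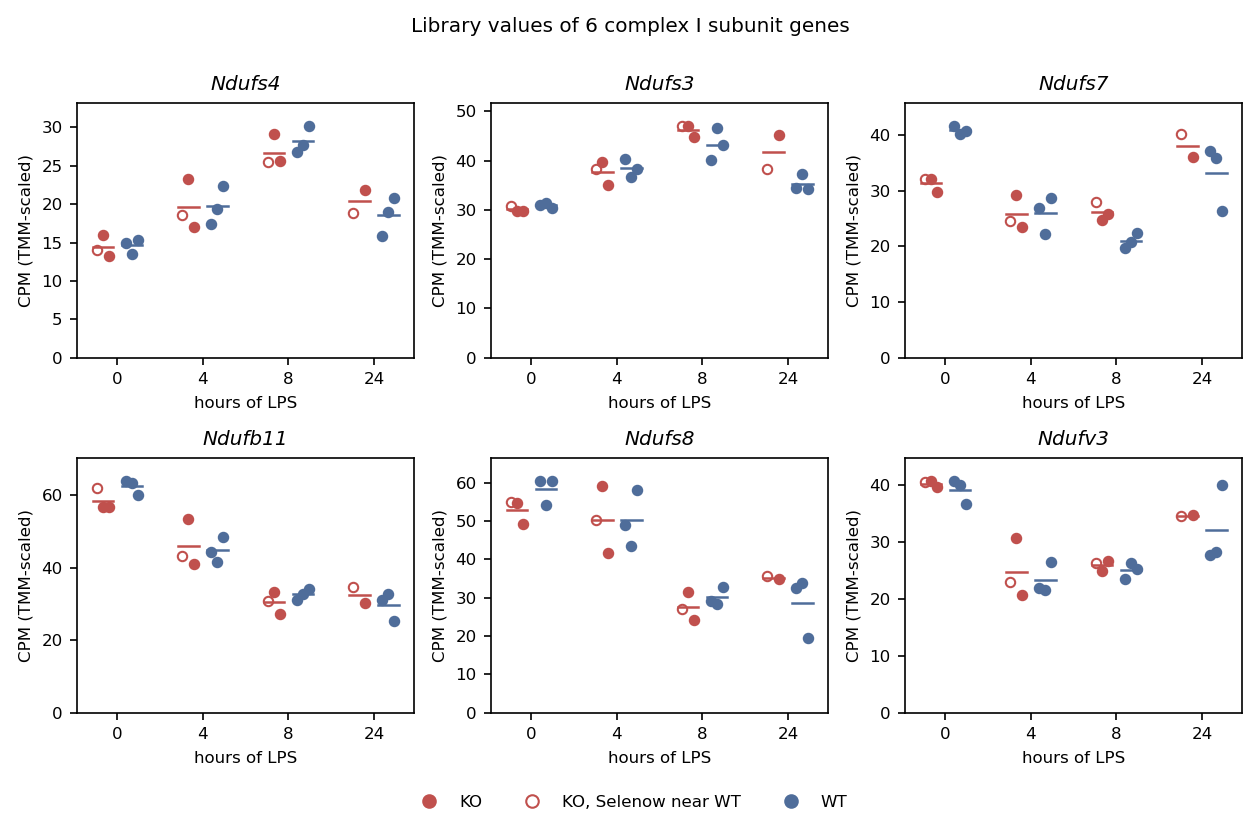
TMM-scaled CPM of 6 members in each library by hours of LPS, with bars for group means, KO in red left of WT in blue and open circles for the 4 KO-labelled libraries with Selenow near the WT level. Ndufs4 and Ndufs3 peak at 8 h, Ndufb11 and Ndufs8 are lowest at 8 and 24 h, Ndufv3 is lowest at 4 and 8 h, and Ndufs7 in WT cells lies at 22.5 CPM or less at 8 h and at 40.1 CPM or more untreated.

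The accessory subunits of the peripheral arm held the member with the largest called rise after LPS. Ndufs4, an accessory subunit needed to keep the NADH-oxidising module attached, whose loss in mice is a model of Leigh syndrome, had 14.01, 15.9 and 13.2 CPM in untreated KO-labelled cells, 18.6, 23.3 and 17.03 at 4 h, 25.5, 29.1 and 25.6 at 8 h, and 18.8 and 21.9 at 24 h. WT cells had 14.99, 13.6 and 15.3 CPM untreated, 17.4, 19.4 and 22.3 at 4 h, 26.9, 27.7 and 30.2 at 8 h, and 15.8, 19.04 and 20.9 at 24 h. In both genotypes each LPS group lay above the untreated group without overlap, and the 8 h libraries were the highest. The log2 fold changes were 0.45 ± 0.13, 0.89 ± 0.13 and 0.50 ± 0.15 in KO-labelled cells (adjusted p = 0.00661, 1.32e-05 and 0.00992). In WT cells they were 0.43 ± 0.13, 0.95 ± 0.13 and 0.34 ± 0.13 (adjusted p = 0.00878, 5.63e-06 and 0.0355). Without TMM the 4 h values were -0.18 in both genotypes, and the 8 h values were 0.36 in KO-labelled and 0.35 in WT cells and no longer passed.

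Ndufv3, a small subunit of the NADH-oxidising module, had 40.4, 40.6 and 39.6 CPM in untreated KO-labelled cells, 23, 30.6 and 20.7 at 4 h, 26.3, 24.9 and 26.6 at 8 h, and 34.5 and 34.7 at 24 h. WT cells had 40.7, 39.98 and 36.7 CPM untreated, 21.8, 21.6 and 26.5 at 4 h, 23.5, 26.3 and 25.2 at 8 h, and 27.7, 28.3 and 40.1 at 24 h. All 4 and 8 h libraries lay below the untreated ones, and WT library 12 at 24 h was back within their range. It fell by 0.70 at 4 h and 0.63 at 8 h in KO-labelled cells (SE 0.14 each, adjusted p = 0.000264 and 0.000738) and by 0.75 and 0.65 in WT cells (SE 0.14 each, adjusted p = 0.000134 and 0.000542). At 24 h the values were -0.22 ± 0.16 in KO-labelled and -0.29 ± 0.14 in WT cells and did not pass (adjusted p = 0.28 and 0.0869).

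Ndufa6, a LYR-motif protein that binds the acyl carrier protein in the matrix arm, had 34.5, 25.1 and 34.6 CPM in untreated KO-labelled cells, 24.9, 22.8 and 24.1 at 4 h, 25.4, 19.9 and 23.2 at 8 h, and 31.9 and 32.3 at 24 h. WT cells had 36.2, 30.8 and 20.5 CPM untreated, 22.1, 22.2 and 20.4 at 4 h, 19.04, 20.8 and 21.7 at 8 h, and 28.6, 31.4 and 31.6 at 24 h. The lowest untreated library of each genotype, KO-labelled 14 and WT 3, belonged to the set that deviated together, with WT library 3 overlapping the 4 and 8 h groups and KO-labelled library 14 the 8 h group. It fell by 0.39 at 4 h and 0.46 at 8 h in KO-labelled cells (SE 0.16 each, adjusted p = 0.0379 and 0.0183) and by 0.44 and 0.51 in WT cells (SE 0.16 each, adjusted p = 0.0227 and 0.00923). At 24 h the values were 0.03 ± 0.18 in KO-labelled and 0.07 ± 0.16 in WT cells.

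Ndufa9, which binds a nicotinamide nucleotide at the junction of the arms, had 33.3, 38.4 and 30.4 CPM in untreated KO-labelled cells, 36.5, 49.8 and 38.7 at 4 h, 44.9, 50.6 and 40.3 at 8 h, and 44.1 and 50.4 at 24 h. In WT cells it had 36.2, 35.2 and 45.5 CPM untreated, 42.1, 37.8 and 51.4 at 4 h, 44.2, 47.5 and 49.7 at 8 h, and 44.5, 43.3 and 38.2 at 24 h. Groups at 8 and 24 h stood clear of the untreated group in KO-labelled cells and overlapped it in WT cells. Ndufa9 was higher by 0.41 ± 0.14 at 8 h (-0.12 without TMM) and 0.47 ± 0.16 at 24 h in KO-labelled cells (adjusted p = 0.0184 and 0.0209), and had 0.27 ± 0.14 and 0.11 ± 0.14 in WT cells (adjusted p = 0.0991 and 0.539). Both calls were lost without libraries 13, 16, 19 and 22, at 0.41 and 0.56 on the log2 scale.

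Ndufa2 had 29.8, 28.8 and 24.9 CPM in untreated KO-labelled cells, 28.8, 35.2 and 26.7 at 4 h, 30.6, 28.97 and 28.4 at 8 h, and 34.8 and 35.2 at 24 h. WT cells had 33.3, 32.7 and 39.02 CPM untreated, 35.5, 28.6 and 35.5 at 4 h, 23.04, 26.6 and 24.5 at 8 h, and 34.4, 31.7 and 28.4 at 24 h. It fell by 0.50 on the log2 scale at 8 h in WT cells (SE 0.12, adjusted p = 0.00117), was 0.08 ± 0.12 at 8 h in KO-labelled cells (-0.45 without TMM), and was higher by 0.33 ± 0.13 at 24 h in KO-labelled cells (adjusted p = 0.0484). The difference of the responses at 8 h was 0.58 ± 0.17 and did not pass (adjusted p = 0.216). Some 11.5% of its exonic bases also lie in Tmco6 on the opposite strand, and the counting did not use strand. Ndufa7 was also called, with 0.25 at 24 h in KO-labelled cells, which was -0.042 without TMM.

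Of the 9 accessory subunits of the proximal membrane arm, at most 2 were called in any LPS comparison. Ndufa1, a short X-linked subunit at the base of the peripheral arm, had 19.2, 18.2 and 16.3 CPM in untreated KO-labelled cells, 24.97, 24.6 and 22.5 at 4 h, 20.5, 18.7 and 21.4 at 8 h, and 17.4 and 18.7 at 24 h. WT cells had 17.03, 15.02 and 13.1 CPM untreated, 19.6, 21.04 and 21.9 at 4 h, 20.4, 20.98 and 19.9 at 8 h, and 19.2, 18.01 and 18.1 at 24 h. All WT libraries with LPS exceeded the untreated ones, and in KO-labelled cells only the 4 h group did so. It was higher by 0.43 ± 0.10 at 4 h in KO-labelled cells (adjusted p = 0.00104, -0.22 without TMM), where 0.18 ± 0.10 at 8 h (-0.35 without TMM) and 0.01 ± 0.11 at 24 h did not pass. In WT cells it was higher by 0.47 ± 0.10, 0.44 ± 0.10 and 0.29 ± 0.10 (adjusted p = 0.000432, 0.000778 and 0.0183), which were -0.14, -0.16 and -0.044 without TMM. The difference of the responses was not past the threshold at any time. Ndufa3, a small subunit of this region, had 26.4, 26.98 and 21.6 CPM in untreated KO-labelled cells, 29.4, 30.4 and 22.1 at 4 h, 30.2, 29.1 and 32.8 at 8 h, and 29.6 and 28.5 at 24 h. WT cells had 31.9, 28.96 and 31.9 CPM untreated, 31.6, 27.9 and 29.7 at 4 h, 28.5, 31.8 and 30.4 at 8 h, and 31.2, 29.4 and 27.2 at 24 h. The called value of Ndufa3, 0.30 ± 0.11 at 8 h in KO-labelled cells (adjusted p = 0.0317, -0.23 without TMM), stood beside untreated KO-labelled libraries that all lay below the untreated WT ones. Ndufa13, also known as GRIM-19 and as a partner of STAT3, fell by 0.35 at 8 h in WT cells. About 29.98% of its exonic bases are shared with Tssk6 on the opposite strand.

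The distal membrane arm held 5 of the 9 falls at 8 h in KO-labelled cells, and 7 of 13 at 8 h and 6 of 8 at 24 h in WT cells. At 4 h, 2 of its 10 accessory subunits were higher and 2 lower in KO-labelled cells and 0 higher and 2 lower in WT cells. At 8 h, 1 was higher and 5 lower in KO-labelled cells and 0 higher and 7 lower in WT cells. At 24 h, 1 was higher and 1 lower in KO-labelled cells, where 2 members fell in all, and 0 higher and 6 lower in WT cells. The background shares called lower were 31.9% and 20.8% at 8 and 24 h in KO-labelled cells and 35.1% and 27.3% in WT cells, and the difference from the other subunits was not tested. The median log2 fold change of these 10 genes was -0.26 and 0.02 at 8 and 24 h in KO-labelled cells and -0.43 and -0.36 in WT cells.

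Ndufb11 had 61.9, 56.6 and 56.8 CPM in untreated KO-labelled cells, 43.2, 53.4 and 41.02 at 4 h, 30.8, 33.3 and 27.2 at 8 h, and 34.6 and 30.2 at 24 h. In WT cells it had 63.9, 63.3 and 60.1 CPM untreated, 44.4, 41.6 and 48.5 at 4 h, 30.96, 32.8 and 34.1 at 8 h, and 31.02, 32.7 and 25.2 at 24 h. Each LPS group lay below the untreated group of its genotype without overlap, and the 8 and 24 h groups overlapped each other. The log2 fold changes in KO-labelled cells were -0.35 ± 0.11, -0.94 ± 0.12 and -0.85 ± 0.13 (adjusted p = 0.0124, 1.27e-06 and 4.11e-05). In WT cells the values were -0.48 ± 0.11, -0.94 ± 0.12 and -1.07 ± 0.12 (adjusted p = 0.00127, 1.1e-06 and 3.83e-07). The 8 and 24 h falls passed in all 36 alternatives in both genotypes. Some 12.9% of the exonic bases of Ndufb11 also lie in Rbm10 on the opposite strand.

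Ndufb10, a subunit on the intermembrane side, had 34.2, 34.8 and 33.5 CPM in untreated KO-labelled cells, 27.01, 30.6 and 27.1 at 4 h, 23.6, 21.98 and 22.8 at 8 h, and 30.4 and 29.6 at 24 h. WT cells had 30.5, 30.01 and 30.4 CPM untreated, 21.6, 22.4 and 26.8 at 4 h, 16.9, 20.2 and 18.9 at 8 h, and 23.8, 24.9 and 20.3 at 24 h. Both genotypes were lowest at 8 h, and all LPS libraries lay below the untreated ones of their genotype. It fell by 0.27 at 4 h and 0.58 at 8 h in KO-labelled cells (SE 0.10 each, adjusted p = 0.0204 and 4.91e-05), and -0.19 ± 0.11 at 24 h did not pass. In WT cells it fell by 0.36, 0.70 and 0.40 (SE 0.10 each, adjusted p = 0.00354, 5.73e-06 and 0.00201).

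Ndufb2, a single-pass subunit of the distal arm, had 8.89, 10.7 and 7.72 CPM in untreated KO-labelled cells, 9.69, 9.76 and 7.36 at 4 h, 6.58, 6.24 and 6.45 at 8 h, and 7.51 and 7.43 at 24 h. WT cells had 10.1, 10.2 and 10.1 CPM untreated, 10.2, 8.57 and 9.05 at 4 h, 6.50, 8.38 and 5.38 at 8 h, and 6.94, 7.05 and 6.34 at 24 h. The 8 and 24 h libraries lay below all untreated ones of their genotype. It fell by 0.50 at 8 h in KO-labelled cells (SE 0.15, adjusted p = 0.00767), with -0.28 ± 0.17 at 24 h not passing, and by 0.59 and 0.58 at 8 and 24 h in WT cells (SE 0.15 each, adjusted p = 0.00223 and 0.00299). Ndufb5 fell by 0.54 at 8 h in KO-labelled cells and by 0.45 and 0.38 at 8 and 24 h in WT cells, and 12.3% of its exonic bases are shared with Mrpl47. Ndufb8 fell by 0.35 at 8 h in KO-labelled and 0.50 in WT cells. Ndufb4 fell by 0.33 and 0.34 at 8 and 24 h in WT cells and was higher by 0.30 at 4 h in KO-labelled cells (-0.34 without TMM). Near-identical copies of it are known in the genome, and their part in its counts was not tested.

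Against the direction of the arm, Ndufb9, a LYR-motif protein that binds a second acyl carrier protein, had 30.9, 34.99 and 28.3 CPM in untreated KO-labelled cells, 33.3, 38.8 and 29.1 at 4 h, 41.3, 39.1 and 38.2 at 8 h, and 42.5 and 41.9 at 24 h. WT cells had 33.7, 32.5 and 33.8 CPM untreated, 29.8, 31.03 and 34.5 at 4 h, 37.4, 36.7 and 33.6 at 8 h, and 37.6, 38.05 and 39.1 at 24 h. KO-labelled libraries at 8 and 24 h exceeded every untreated library of either genotype. The log2 fold changes were 0.33 ± 0.10 at 8 h (-0.20 without TMM) and 0.43 ± 0.11 at 24 h in KO-labelled cells (adjusted p = 0.00766 and 0.00422), and 0.11 ± 0.10 (-0.50 without TMM) and 0.20 ± 0.10 in WT cells (adjusted p = 0.356 and 0.0982). A transcript on the same strand, Gm49356, shares 19.5% of its exonic bases. Ndufb6 had 11.4, 14.1 and 10.2 CPM in untreated KO-labelled cells, 14.3, 18.5 and 13.5 at 4 h, 13.4, 14.2 and 12.1 at 8 h, and 15.1 and 14.02 at 24 h. WT cells had 13.4, 11.97 and 14.6 CPM untreated, 15.1, 14.3 and 17.3 at 4 h, 11.7, 11.7 and 13.2 at 8 h, and 13.1, 15.4 and 10.2 at 24 h. Its 4 h value in KO-labelled cells was 0.38 ± 0.16 (adjusted p = 0.0424) with overlapping groups and was -0.26 without TMM, and 39% of its exonic bases are shared with Smim27 on the opposite strand. Ndufab1, the mitochondrial acyl carrier protein itself, had 18.6, 21.8 and 15.8 CPM in untreated KO-labelled cells, 20.2, 23.7 and 18.8 at 4 h, 24.8, 24.3 and 25.2 at 8 h, and 27.7 and 26.1 at 24 h. WT cells had 22.2, 18.9 and 27.2 CPM untreated, 23.1, 20.5 and 24.5 at 4 h, 21.99, 25.03 and 21.9 at 8 h, and 25.5, 26.9 and 21.8 at 24 h. In KO-labelled cells it was higher by 0.40 ± 0.14 at 8 h (-0.13 without TMM) and 0.52 ± 0.15 at 24 h (adjusted p = 0.0169 and 0.00961), while WT cells, whose groups overlapped, had 0.01 ± 0.14 (-0.59 without TMM) and 0.12 ± 0.14. A pseudogene, Ndufab1-ps, is annotated separately, and its part in the counts of Ndufab1 was not tested.

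Between the genotypes 1 member differed at every time. Ndufs5, an accessory subunit on the intermembrane face of the proximal membrane arm, had 14.9, 19.2 and 14.4 CPM in untreated KO-labelled cells against 6.59, 6.22 and 6.20 CPM in untreated WT cells. At 4 h it had 19.8, 24.05 and 16.6 CPM in KO-labelled and 6.03, 8.07 and 9.69 CPM in WT cells. At 8 h the values were 18.5, 18.7 and 18.8 CPM in KO-labelled and 7.04, 7.33 and 9.50 CPM in WT cells, and at 24 h 23.1 and 22.97 CPM in KO-labelled and 8.92, 9.31 and 8.62 CPM in WT cells. Every KO-labelled library exceeded every WT library of the whole series, and the first value of each KO-labelled group belongs to libraries 13, 16, 19 and 22, in which Selenow was near the WT level. The log2 differences were 1.35 ± 0.16, 1.35 ± 0.16, 1.23 ± 0.16 and 1.36 ± 0.18 at 0, 4, 8 and 24 h (adjusted p = 4.38e-05, 4.57e-05, 0.000123 and 0.000118) and 1.32 ± 0.08 on average over the times (adjusted p = 1.26e-09). The background was low here: 1.52%, 1.24%, 2.2% and 1.19% of all genes were called at 0, 4, 8 and 24 h, and 6.27% on average. Each of these calls held in all alternatives tried, between 1.15 and 1.52 on the log2 scale at single times. The gene lies on chr4:123712710-123718202 on the minus strand (GRCm38) and shares no exonic base with another annotated gene. Of the 10 nearest tested genes 0 were called on average over the times. Their standard errors ran from 0.063 (Akirin1) to 463 (Nt5c1a) on the log2 scale, so some could hardly have been called. Of 25 tested within 1000000 bases 1 was called, Utp11, named after its value was seen. Utp11 lay 959958 bases away and was higher in KO-labelled cells by 0.49 ± 0.06 on the log2 scale (adjusted p = 7.94e-06 in edgeR). After LPS Ndufs5 was higher at 24 h in both genotypes, by 0.51 ± 0.18 in KO-labelled and 0.50 ± 0.16 in WT cells (adjusted p = 0.0266 and 0.0148), and the response did not differ past the threshold between genotypes at any time.

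**Figure D5:**
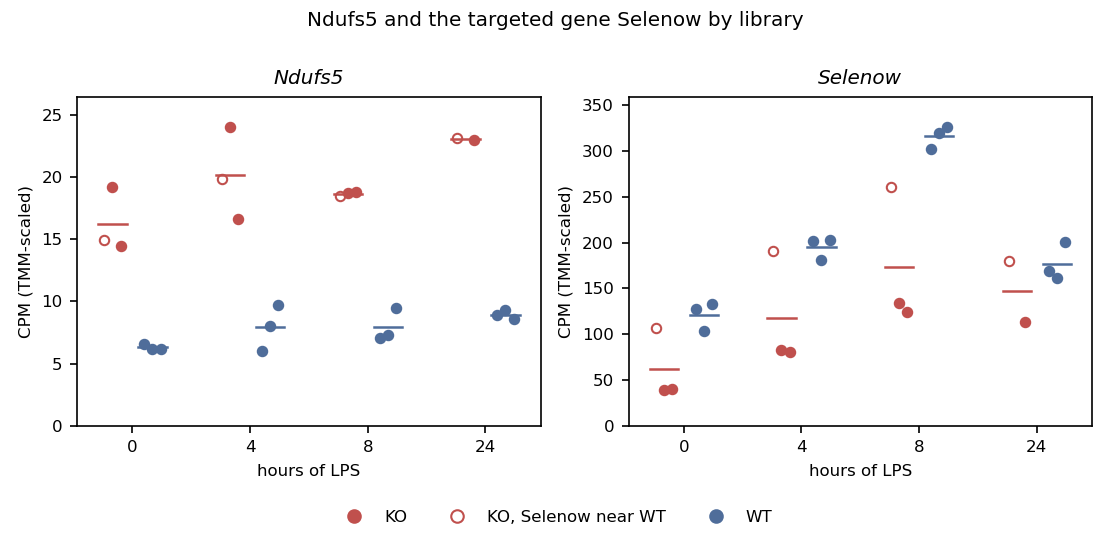
TMM-scaled CPM of Ndufs5 (left) and of the targeted gene Selenow (right) in each library by hours of LPS, with bars for group means, KO in red left of WT in blue and open circles for the KO-labelled libraries 13, 16, 19 and 22. For Ndufs5 all KO-labelled points, open circles included, lie at 14.4 CPM or more and all WT points at 9.69 CPM or less, whereas for Selenow the open circles lie near the WT points.

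No other member was called at a single time by edgeR, where 1 of 35 was called against backgrounds of 1.19% to 2.2%. DESeq2 also called Ndufb10 at 24 h, 2 members in all. With the library set as a term edgeR called 1 member higher and 5 lower in KO-labelled cells at 0 h, and 2, 4 and 11 higher and 0 lower at 4, 8 and 24 h. The background of that fit was higher too, with 2467, 842, 2931 and 3530 of 18083 genes called at 0, 4, 8 and 24 h. On average over the 4 times Ndufb10 was higher in KO-labelled than in WT cells by 0.28 ± 0.05 on the log2 scale (adjusted p = 0.00153). Its differences were 0.17 ± 0.10, 0.26 ± 0.10, 0.29 ± 0.10 and 0.38 ± 0.11 at 0, 4, 8 and 24 h, and at each time the KO-labelled libraries listed above exceeded the WT libraries without overlap. It passed in 34 of 35 alternatives, the exception being a test against a fold of 1.5, and without libraries 13, 16, 19 and 22 it was 0.27 (adjusted p = 0.0391). Ndufb7, a subunit of the intermembrane face, had 44.2, 46.4 and 39.8 CPM in untreated KO-labelled cells, 43.8, 51.9 and 41.9 at 4 h, 39.5, 39.3 and 37.8 at 8 h, and 41.1 and 40.3 at 24 h. WT cells had 43.8, 41.6 and 46.3 CPM untreated, 40.7, 40.5 and 44.4 at 4 h, 32.9, 33.9 and 32.7 at 8 h, and 35.1, 34.6 and 29.2 at 24 h. The genotypes overlapped at 0 and 4 h and not at 8 and 24 h. Its average difference was 0.16 ± 0.05 (adjusted p = 0.0499). The adjusted p was under 0.05 in 10 of 35 alternatives, 5 of the 23 that leave out a library among them. The stricter threshold of 0.01, which leaves that p as it is, was not passed. Without libraries 13, 16, 19 and 22, which leaves 1 KO-labelled library at 24 h, the difference was 0.16.

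The members as a group sat slightly higher in KO-labelled cells late in the course. Of 35, 12, 18, 26 and 33 had a difference above 0 at 0, 4, 8 and 24 h, and the differences had medians of -0.07, 0.00, 0.08 and 0.19 on the log2 scale, while the median of all genes was at most 0.01 from 0. The 24 h shift was not particular to the members. Every listed subunit of respiratory complexes II and IV also had a higher mean in KO-labelled than in WT cells at 24 h. Sdhd of complex II had 65.2 against 64.8 CPM, and Cox4i1 of complex IV 138 against 117 CPM. The 24 h comparison rests on 2 KO-labelled libraries, where the summed macrophage markers did not overlap between the genotypes. They were at 24203 to 25617 CPM in KO-labelled and 12703 to 22661 CPM in WT cells. Lyz2 led these sums, at 16474 to 18378 CPM in KO-labelled and 6157 to 16144 CPM in WT cells. Itgam did not overlap between the genotypes either, while Adgre1, Cd68, Csf1r and Mertk did. Summed neutrophil markers were higher in KO-labelled cells without overlap at every time. At 4 h they were at 87.0 to 109 against 50.7 to 60.8 CPM in WT cells, and at 8 h at 41.1 to 55.8 against 27.2 to 37.1 CPM. The part of these markers in the members' differences at any time, those of Ndufs5, Ndufb10 and Ndufb7 included, was not tested. Without library 22, and also without libraries 13, 16, 19 and 22, the members above 0 at 24 h were again 33 and the median was 0.21, and without library 23 they were 34 and 0.17. A response that differed between genotypes was called for 0 members at 4, 8 and 24 h by edgeR, with backgrounds of 0.0442%, 0.0442% and 0%. At an unadjusted p under 0.05 there were 1, 4 and 7 members, all with the higher response in KO-labelled cells, and DESeq2 called 0, 1 (Ndufs7) and 0. With the library set as a term in the fit, edgeR called 4 members at 8 h and 10 at 24 h, all positive, and 11 members between the genotypes at 24 h, in a fit that called 2302, 2957 and 3530 genes in these comparisons. The set was read from these libraries, and what it stands for is not in the labels.

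The library set moved with single members. Ndufa12, an accessory subunit of the peripheral arm, had 29.8 CPM in KO-labelled library 14 and 29.9 CPM in WT library 3, against 14.6 and 14.7 CPM in the other untreated KO-labelled and 21.1 and 13.4 CPM in the other untreated WT libraries. At 4 h libraries 17 and 6 had 27.1 and 25.9 CPM, the other KO-labelled 18.8 and 14.9 CPM and the other WT 18.2 and 17.6 CPM. Its standard errors, up to 0.33 on the log2 scale for a genotype difference, were the largest among the members, and it was not called anywhere.

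Between LPS times, 2 members were higher and 9 lower at 8 h than at 4 h in KO-labelled cells (47.2% of all genes called, 24.4% higher and 22.8% lower) and 1 higher and 8 lower in WT cells (46.7%, 24% higher and 22.8% lower). At 24 h against 8 h, 6 were higher and 1 lower in KO-labelled cells (34.7% of all genes called, 17.9% higher and 16.8% lower) and 6 higher and 2 lower in WT cells (44.9%, 23.1% higher and 21.9% lower). Ndufs4 was higher at 8 h than at 4 h and lower at 24 h than at 8 h in both genotypes. The count at 24 h against 8 h came to 0 without KO-labelled library 22, 2 without 23, 3 without 20 and 3 without 21, and in WT cells to 4 without library 7 and 5 without 9, 10 or 11. The KO-labelled count at 8 h against 4 h came to 6 without library 17 and 7 without library 20.

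The other genes of the complex were described from lists chosen by function. The 7 subunits encoded by mitochondrial DNA, which form the proton-pumping core, held 0 members called higher at any time in KO-labelled cells, with 0, 7 and 5 lower at 4, 8 and 24 h, while in WT cells 4, 0 and 1 were higher and 0, 3 and 4 lower at these times. mt-Nd1, beside the ubiquinone tunnel, averaged 1834 ± 144, 1912 ± 215, 764 ± 94.3 and 653 ± 128 CPM at 0, 4, 8 and 24 h in KO-labelled cells (SD, n = 3, 3, 3 and 2) and 1606 ± 120, 2074 ± 251, 1018 ± 96.9 and 603 ± 74.0 CPM in WT cells (SD, n = 3 each). It fell by 1.26 at 8 h and 1.49 at 24 h on the log2 scale in KO-labelled cells and by 0.66 and 1.41 in WT cells. The median of the 7 was -0.98 at 8 h and -0.94 at 24 h in KO-labelled and -0.34 and -0.49 in WT cells, below the nuclear-encoded median in each case. mt-Nd6, whose gene lies on the other strand of the mitochondrial genome, was higher in KO-labelled than in WT cells by 0.47 ± 0.11 on average over the times (adjusted p = 0.0125 in edgeR). Strand was not used in counting, so reads of mt-Nd6 and of transcripts running the other way cannot be told apart.

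Of the 17 assembly factors tested, proteins that build the complex without staying in it, 4, 2 and 5 were higher and 6, 7 and 1 lower at 4, 8 and 24 h in KO-labelled cells, and 4, 2 and 5 were higher and 5, 9 and 3 lower in WT cells. At 8 h the log2 fold changes had an SD over the 17 factors of 0.91 in both genotypes, where that over the 35 members was 0.40 in KO-labelled and 0.42 in WT cells, a difference that was not tested. Ndufaf7, a mitochondrial methyltransferase, fell by 2.75 at 8 h in KO-labelled and 2.70 in WT cells, Dmac2 fell by 1.68 and 2.06, and Ecsit, an assembly factor also known from Toll-like receptor signalling, fell by 1.04 and 1.53. Timmdc1, which helps to assemble the membrane arm, was higher at 24 h by 1.02 in KO-labelled and 0.95 in WT cells. Between the genotypes Ndufaf7 and Tmem126b were higher in KO-labelled cells by 0.81 ± 0.15 and 0.36 ± 0.07 on average (adjusted p = 0.00174 and 0.00354 in edgeR).

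Other complexes of the chain were read from the same fit. At 8 h in KO-labelled cells 0 of 4 complex II subunits were higher and 1 lower, 3 of 9 nuclear-encoded complex III subunits higher and 2 lower, 2 of 10 complex IV subunits higher and 0 lower, and 2 of 15 ATP synthase subunits higher and 3 lower. In WT cells at 8 h the counts were 0 and 3, 2 and 3, 0 and 1, and 1 and 7. Atp5g2, which encodes the membrane ring of ATP synthase, fell by 0.75 at 8 h in KO-labelled and 1.09 in WT cells. Cox4i1, a complex IV subunit, fell by 0.39 at 24 h in KO-labelled and 0.83 in WT cells. Ndufa4, named after complex I but now placed in complex IV, averaged 49.6 ± 5.07, 58.0 ± 10.1, 26.02 ± 1.77 and 19.4 ± 4.87 CPM at 0, 4, 8 and 24 h in KO-labelled cells (SD, n = 3, 3, 3 and 2) and 48.1 ± 3.06, 53.2 ± 5.48, 26.8 ± 2.51 and 19.1 ± 2.41 CPM in WT cells (SD, n = 3 each). Its fall was -0.93 ± 0.14 at 8 h and -1.36 ± 0.17 at 24 h in KO-labelled and -0.85 ± 0.14 and -1.33 ± 0.15 in WT cells. AA467197, the mouse Nmes1 gene whose product is known to take the place of Ndufa4, averaged 3.03 ± 0.360, 629 ± 107, 1065 ± 25.6 and 106 ± 51.5 CPM in KO-labelled cells and 3.07 ± 1.29, 589 ± 85.8, 1005 ± 32.2 and 145 ± 93.4 CPM in WT cells at these times. It was higher at 8 h by 8.46 ± 0.47 in KO-labelled and 8.35 ± 0.46 in WT cells on the log2 scale.

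Regulators known for controlling respiratory genes moved in both directions. Esrra, a nuclear receptor that binds the ERR core, was higher at 8 h by 1.46 ± 0.11 in KO-labelled and 1.08 ± 0.11 in WT cells. Its coactivator Ppargc1b fell by 2.06 in KO-labelled and 2.38 in WT cells at 8 h. At 4 h Ppargc1b had values of 0.72 ± 0.37 in KO-labelled and 0.45 ± 0.37 in WT cells, which did not pass. Gabpa, the ETS factor, was higher at 4 h by 0.47 ± 0.08 in KO-labelled and 0.49 ± 0.08 in WT cells, and fell by 0.57 in KO-labelled and 0.50 in WT cells at 8 h. Whether these genes bear on the members was not tested.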

How the data were processed

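Raw read counts per gene were deposited by the authors. Per the file headers they were made with featureCounts 2.0.1 on exons of Ensembl release 101 (GRCm38), ignoring strand and counting a pair that overlaps several genes for each, and per the submitters' processing notes reads were aligned with HISAT2, whose version is not given in the sources used here. Symbols were matched for 55141 of 55401 identifiers. From the counts, edgeR 4.0.16 (R 4.3.3) fitted 8 group means over 23 libraries with TMM scaling after filterByExpr, and its quasi-likelihood test gave Benjamini-Hochberg adjusted p-values over 18083 genes, called under 0.05. The procedure was tested on simulated data in which few genes changed and no library set was built in. That test does not bear on the scaling after LPS or on the set. CPM were TMM-scaled and FPKM used the deposited exonic lengths. Total counts of 39001456 to 41819953 limit the precision by counting error. Values in every library were printed for the members highest and lowest in FPKM, with the largest called changes after LPS, called against the common direction, or called between genotypes. The members and lists were chosen with earlier results of these data known. Alternatives were DESeq2 1.42.0, limma-voom (limma 3.58.1), other scalings, filters and thresholds, only the groups compared, library-set fits and each library left out.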

Additional observations from a re-analysis of the deposited data

How the results depend on the processing

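Of 6942 values of 193 named fold changes under the alternatives, 6195 kept their direction and side of the threshold, 572 no longer passed and 84 newly passed. Another 71, past the threshold in neither setting, changed sign, 15 of them without scaling beyond library totals, a choice made after seeing the data. The last 20, past it in at least 1 setting, also changed sign, all without that scaling. These 20 were Ndufa1 at 4 and 8 h in KO-labelled (-0.22, -0.35) and at 4, 8 and 24 h in WT cells (-0.14, -0.16, -0.044), Ndufs3 at 4 h in KO-labelled (-0.32) and at 4 and 8 h in WT cells (-0.30, -0.12), Ndufs4 at 4 h in both (-0.18), Ndufab1 and Ndufb9 at 8 h in KO-labelled (-0.13, -0.20) and WT cells (-0.59, -0.50), and in KO-labelled cells Ndufa2 (-0.45), Ndufa3 (-0.23) and Ndufa9 (-0.12) at 8 h, Ndufb4 (-0.34) and Ndufb6 (-0.26) at 4 h and Ndufa7 (-0.042) at 24 h. The causes of the following changes in counts of called members were not tested. Against untreated cells at 4, 8 and 24 h, that setting gave 25, 25 and 8 in KO-labelled and 27, 29 and 22 in WT cells, a fold of at least 1.5 gave 0, 3 and 1 and 0, 4 and 2. At 4 h in KO-labelled cells DESeq2 gave 14, and an adjusted p under 0.01, no filter, only the groups compared and leaving out libraries 13, 16, 19 and 22 gave 4 each. Leaving those out gave 8 at 8 h and 2 at 24 h. At 24 h in KO-labelled cells the stricter p gave 5, only the groups compared 4 and the set term 20. The set term called 9872 of 18083 genes there, so the members' share was not below that of all genes. In WT cells at 24 h the stricter p gave 6 and no filter and only the groups compared 7 each. At 24 h against 8 h, KO-labelled cells gave 2 under the stricter p and no filter, 0 at a fold of 1.5 and without the 4 libraries, 15 without scaling and 19 with the set term, and WT cells gave 4 under the stricter p, 0 at a fold of 1.5, 3 with no filter and 5 with RLE scaling and only the groups compared. At 8 h against 4 h, KO-labelled cells gave 4 under the stricter p and without scaling, 0 at a fold of 1.5, 5 with no filter and 3 without the 4 libraries, and WT cells gave 0 at a fold of 1.5 and 14 with the set term. Between genotypes the set term gave 6, 2, 4 and 11 at 0, 4, 8 and 24 h and 8 on average, the libraries outside the second set 2 at 0 h and 3 at 8 h, DESeq2 2 at 24 h, and a fold of 1.5 gave 1 on average. Over all genes the set term gave 2467, 842, 2931 and 3530 at these times and 4321 on average. It also gave 9063 genes at 24 h against 8 h in KO-labelled cells and 10517 at 8 h against 4 h in WT cells. For the difference of responses the set term gave 4 at 8 h and 10 at 24 h, and DESeq2 and the libraries outside the second set 1 each at 8 h. Leaving out 1 library gave 6 to 12, 11 to 16 and 4 to 11 at 4, 8 and 24 h in KO-labelled and 7 to 10, 15 to 17 and 8 to 13 in WT cells. It gave 6 to 12 (KO-labelled) and 7 to 12 (WT) at 8 h against 4 h, 0 to 7 and 4 to 9 at 24 h against 8 h, 1 to 1 between genotypes at each time, 2 to 4 on average and 0 to 0 for the difference of responses. No analysis paired by label was possible because no replicate number occurs in more than 1 group. The library set, read from the data, was a term in an alternative fit only, and the main fit did not account for it.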
